A study of Mus musculus with 6 samples.

Results

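Glucuronosyltransferases, sulfotransferases and glutathione transferases were followed in mouse livers that had lost Selenoo, which encodes the mitochondrial selenoprotein SelO, in hepatocytes. The genes were taken by symbol: Ugt followed by 1, 2 or 3, Sult followed by a digit, and Gst followed by a, m, k, o, p, t or z and a digit. This gave 55 of the 16140 genes measured, 20 of them Ugt, 14 Sult and 21 Gst genes. The knockout livers (n = 3) had the genotype Selofl/fl Alb-Cre, in which Cre driven by the promoter of the albumin gene is made in hepatocytes. The control livers (n = 3) were Selofl/fl without Cre, and all mice were on a normal diet; age and sex are not given in the labels. An effect of Cre itself and the loss of Selenoo cannot be told apart. RNA was sequenced in bulk after poly(A) selection, and the libraries held 17949320 to 18464741 estimated counts in knockout and 15550305 to 18680200 in control livers. Of the 55 genes, 43 had enough counts to be tested (16 Ugt, 7 Sult and 20 Gst). Whether the 6 libraries are 6 separate mice is not in the labels, and p-values then measure only the spread between these samples.

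Phase II enzymes attach a polar group to drugs, hormones, bilirubin, bile acids and reactive metabolites so that these can leave the hepatocyte in bile or blood. Ugt enzymes sit in the endoplasmic reticulum and transfer glucuronic acid from UDP-glucuronic acid. Sult enzymes are cytosolic and transfer sulfate from the donor PAPS, and the Gst enzymes join glutathione to electrophiles. The genes lie in tandem clusters of near copies. Transcription of many of them is known to be set by the xenobiotic receptors CAR, PXR and AhR, by NRF2 and by the sex-dependent pattern of growth hormone.

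The Ugt2b promoters are shown because all 7 Ugt2b genes had positive fold changes of knockout over control. Each line is the 100 bases before the RefSeq transcription start (GRCm38.p6), read 5′ to 3′ on the strand of the gene. Capitals mark AGGTCA, the motif bound by many nuclear receptors.
Ugt2b5: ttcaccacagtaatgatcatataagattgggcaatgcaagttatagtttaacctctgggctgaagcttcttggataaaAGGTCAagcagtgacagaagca
Ugt2b37: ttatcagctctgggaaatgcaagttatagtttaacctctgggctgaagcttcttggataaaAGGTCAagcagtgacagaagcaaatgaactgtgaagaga
Ugt2b38: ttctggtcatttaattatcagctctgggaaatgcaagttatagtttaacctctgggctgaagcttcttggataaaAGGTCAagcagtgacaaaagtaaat
Ugt2b36: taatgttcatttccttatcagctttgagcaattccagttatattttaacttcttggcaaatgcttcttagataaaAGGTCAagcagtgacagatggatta
Ugt2b1: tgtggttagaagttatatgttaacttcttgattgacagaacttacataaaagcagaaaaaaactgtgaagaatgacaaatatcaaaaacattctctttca
Ugt2b34: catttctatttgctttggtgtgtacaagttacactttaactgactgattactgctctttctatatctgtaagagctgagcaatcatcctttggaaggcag
Ugt2b35: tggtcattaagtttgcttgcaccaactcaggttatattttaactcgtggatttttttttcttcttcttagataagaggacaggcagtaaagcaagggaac
These lie on chromosome 5, Ugt2b35 on the plus strand (chr5:87000760-87000859) and the others on the minus strand: Ugt2b5 at chr5:87140341-87140440, Ugt2b37 at chr5:87254789-87254888, Ugt2b38 at chr5:87424204-87424303, Ugt2b36 at chr5:87092556-87092655, Ugt2b1 at chr5:86926504-86926603 and Ugt2b34 at chr5:86906938-86907037. The promoters of Ugt2b5, Ugt2b37 and Ugt2b38 shared a run of 62 identical bases around the motif, and 22 of those bases were also in the Ugt2b36 promoter. Ugt2b1 and Ugt2b5 had no run in common longer than 9 bases.

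The same 100 bases are shown for 4 starts of the Ugt1a locus because these promoters feed transcripts with common last exons. Capitals mark GCGTG, the core of the xenobiotic response element bound by AhR.
Ugt1a9: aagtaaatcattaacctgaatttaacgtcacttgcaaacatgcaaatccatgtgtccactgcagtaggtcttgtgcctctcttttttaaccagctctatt
Ugt1a6a: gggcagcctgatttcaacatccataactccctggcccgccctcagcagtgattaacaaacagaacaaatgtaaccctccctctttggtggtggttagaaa
Ugt1a5: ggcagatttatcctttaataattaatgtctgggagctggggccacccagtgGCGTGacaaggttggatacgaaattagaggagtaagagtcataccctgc
Ugt1a1: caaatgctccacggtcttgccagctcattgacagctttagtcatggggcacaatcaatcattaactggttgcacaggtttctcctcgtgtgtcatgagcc
All are on the plus strand of chromosome 1, Ugt1a9 at chr1:88070679-88070778, Ugt1a6a at chr1:88134709-88134808, Ugt1a5 at chr1:88165912-88166011 and Ugt1a1 at chr1:88211859-88211958. Motifs were searched on both strands of the 250 bases before the start. AGGTCA was in 7 of 18 Ugt, 3 of 13 Sult and 1 of 27 Gst promoters, and in 14.02% of all 32851 promoters of the table. In Ugt2b5, Ugt2b36, Ugt2b37 and Ugt2b38 it lies in their common run of 22 bases, so these promoters are not independent. In Ugt2b35 and Ugt1a9 it lies at -215 and -201, outside the bases shown. The core GCGTG was in 1 of 18 Ugt, 3 of 13 Sult and 6 of 27 Gst promoters and 28.16% of all. The antioxidant response core TGACNNNGC was in 0 of 18 Ugt, 0 of 13 Sult and 3 of 27 Gst promoters and 10.16% of all. None of the capitals shown overlap one another. Promoters were found for 47 of the 55 genes.

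Selenoo itself had 117, 163 and 135 counts in knockout livers and 1413, 1630 and 1852 counts in control livers, a log2 fold change of -3.56 ± 0.17 (SE) and an adjusted p of 4.64e-05 by edgeR. The libraries also differed within groups. The median SD of log2(CPM + 1) over the 43 phase II genes was 0.177 in knockout and 0.327 in control livers, against 0.130 and 0.210 over all genes tested. Control replicate 1 was the highest of the 6 libraries for 16 of the 43 genes and control replicate 2 for none. Knockout replicate 1 was the lowest for 14, and control replicate 3 for 11. Deviations from the gene mean were related to transcript length, with Spearman's rho across genes of 0.27, 0.085 and 0.088 in knockout livers and -0.29, -0.22 and 0.27 in control livers. Genes are not independent replicates in these values.

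Of the 43 phase II genes, 0 had an adjusted p under 0.05 by the quasi-likelihood test of edgeR, where 1.49% of all 12173 genes tested did (0.772% higher and 0.715% lower). At an unadjusted p under 0.05 there were 16 of the 43, 11 higher and 5 lower in knockout livers, against 18.5% of all genes (9.27% higher and 9.26% lower). Groups that did not overlap were found for 11 of the 43, 9 higher and 2 lower, against 25.2% of all genes (13.3% higher and 11.9% lower). The share with separate groups was near its background and the share with an unadjusted p under 0.05 above it, a difference that was not tested. The signs differed by family. Of 16 Ugt genes, 13 had a positive log2 fold change of knockout over control, with a median of 0.48. Of 20 Gst genes, 13 had a negative one, with a median of -0.25, and the 7 Sult genes had a median of -0.10. The median over all genes tested was -0.02. Most Gst transcripts are shorter than the Ugt transcripts, so family and transcript length go together here. In a fit without the length trend, added after seeing the data, Gstm1 was at -0.28 instead of -0.40 and Gstt1 at -0.50 instead of -0.66. Other Gst genes moved away from 0, with Gstp1 at 0.93 instead of 0.73 and Gsto1 at 0.30 instead of 0.18. Ugt2b1 was at 0.85 instead of 0.84, Ugt2b5 at 0.54 instead of 0.48 and Ugt2b34 at 0.33 instead of 0.39. The part of length in the family signs was not tested.

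**Figure D1:**
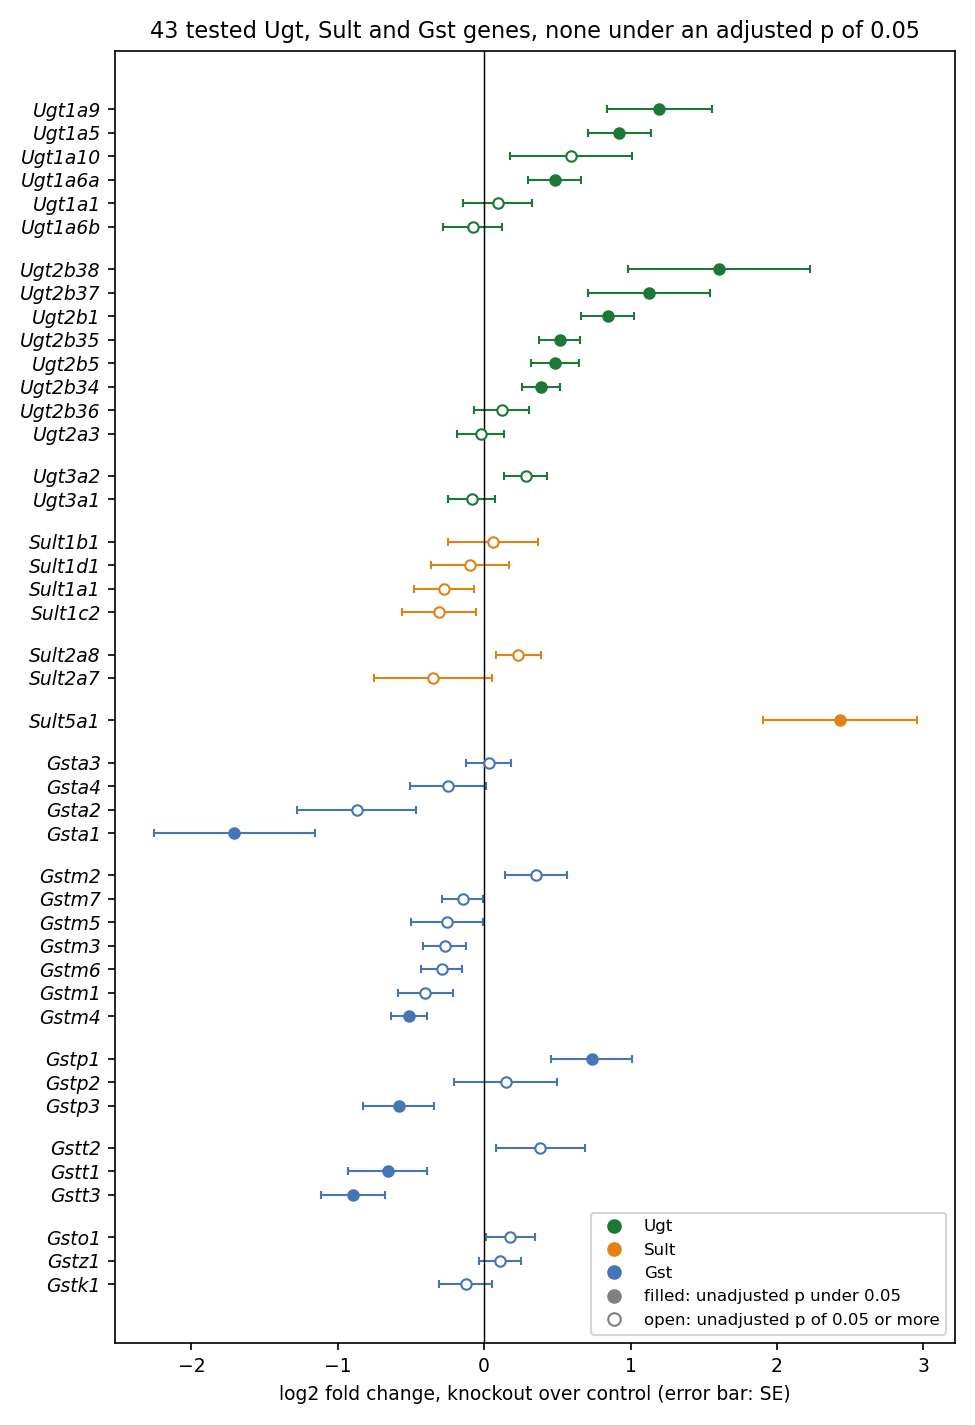
Log2 fold change of knockout over control for the 43 tested genes by family, with bars for the standard error; the horizontal position is the fold change and each row a gene. The Ugt genes lie mostly right of 0, with Ugt2b38 at 1.60 and Ugt1a9 at 1.20, and the Gst genes mostly left of it, with Gsta1 at -1.71.

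The 5 genes with the smallest p had adjusted p between 0.0589 and 0.0774. These were Ugt2b1, Sult5a1 and Ugt1a5, which were higher in the 3 knockout libraries than in any control library, and Gstm4 and Gstt3, which were lower. At an adjusted p of 0.1 there were thus 3 higher and 2 lower, against 4.21% of all genes (2.27% higher and 1.95% lower). The other 38 had an adjusted p between 0.103 and 0.945.

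Counts are given below as CPM, which are counts relative to the library total and scaled by TMM factors, where one gene is compared between libraries. Levels of different genes are compared in TPM, which the authors computed per transcript length. Fewer cells of a type and less RNA per cell cannot be told apart in such bulk samples.

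Ugt2b enzymes glucuronidate steroids, bile acids and many drugs. All 7 genes had positive fold changes, with a median log2 of 0.52, and 4 had groups that did not overlap. Over all 12173 genes tested, 5821 had positive fold changes, and 13.3% had separate groups with the higher values in knockout livers. Ugt2b1 (chr5:86916639-86926503 in RefSeq on GRCm38, minus strand), known in rats for conjugating bisphenol A, had 7315, 10201 and 8999 counts in knockout livers and 4700, 5288 and 4647 counts in control livers. In CPM this was 496 ± 95.9 CPM in knockout livers and 276 ± 37.3 CPM in control livers (SD, n = 3 each). The lowest knockout library (393 CPM) was above the highest control library (315 CPM). The log2 fold change, 0.84 ± 0.18 (SE), had an adjusted p of 0.0589 by edgeR and between 0.0329 (without control replicate 1) and 0.239 (without knockout replicate 2) with single libraries left out. No 100-base stretch of its transcript occurs in another gene.

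Ugt2b5, the most abundant Ugt gene by TPM, had 704, 699 and 703 CPM in knockout livers and 599.5, 500.5 and 406 CPM in control livers. The knockout libraries were close to each other, whereas the control libraries were widely spread and lay below them all. The log2 fold change, 0.48 ± 0.17 (SE), had an adjusted p of 0.169 by edgeR and between 0.0485 (without control replicate 1) and 0.398 (without knockout replicate 2) with single libraries left out. Ugt2b34 had 353, 367 and 372 CPM in knockout livers and 270.2, 301 and 264 CPM in control livers, again without overlap. For Ugt2b34 the log2 fold change, 0.39 ± 0.13 (SE), had an adjusted p of 0.164 by edgeR. Ugt2b35 had 63.5, 74.1 and 70.2 CPM in knockout livers and 45.7, 55.6 and 44.0 CPM in control livers. These groups were also apart, with a log2 fold change of 0.52 ± 0.14 (SE) and an adjusted p of 0.103 by edgeR.

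The other 3 Ugt2b genes had overlapping groups. Ugt2b36, next to Ugt2b5 in TPM among the Ugt genes, had 378, 412 and 424 CPM in knockout livers and 484, 323 and 310 CPM in control livers. Control replicate 1 was the highest of the 6, and the log2 fold change was 0.12 ± 0.19 (SE). Ugt2b38 had 243, 247 and 120 counts in knockout livers and 42, 149 and 11 counts in control livers, so that control replicate 2 lay inside the knockout range and control replicate 3 far below it. Its log2 fold change was 1.60 ± 0.62 (SE), adjusted p 0.215 by edgeR. This log2 value was 2.81 without control replicate 2 and 1.08 without control replicate 3, and 2.21 by limma-voom. Ugt2b37 was expressed at a low level, with 65, 20 and 32 counts in knockout livers and 14, 23 and 16 counts in control livers. Knockout replicate 1 was the highest of the 6, and the log2 fold change of 1.12 ± 0.42 (SE) was 0.58 without it. The promoters of Ugt2b5 and Ugt2b38 both hold the run of 62 bases given above. Their transcripts share 24.7% and 24.2% of their 100-base windows, so the split of counts between these 2 genes is uncertain.

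Summed over the 7 genes, Ugt2b transcripts had 1908, 2150 and 2089 CPM in knockout livers and 1718, 1462 and 1266 CPM in control livers. The sums did not overlap. Neighbouring Ugt2a3, a UDP-glucuronosyltransferase of the same cluster, had 143, 176 and 196 CPM in knockout livers and 201, 158 and 165 CPM in control livers and a log2 fold change of -0.03 ± 0.16 (SE). Its share of Ugt2 TPM was 7.21%, 7.91% and 8.94% in knockout livers and 10.6%, 10.1% and 11.9% in control livers. The share of Ugt2b1 was 16.1%, 21.3% and 19.0% in knockout livers and 13.5%, 14.2% and 14.2% in control livers. Both are parts of one sum, so higher Ugt2b values by themselves lower the share of Ugt2a3. The shares were not tested.

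**Figure D2:**
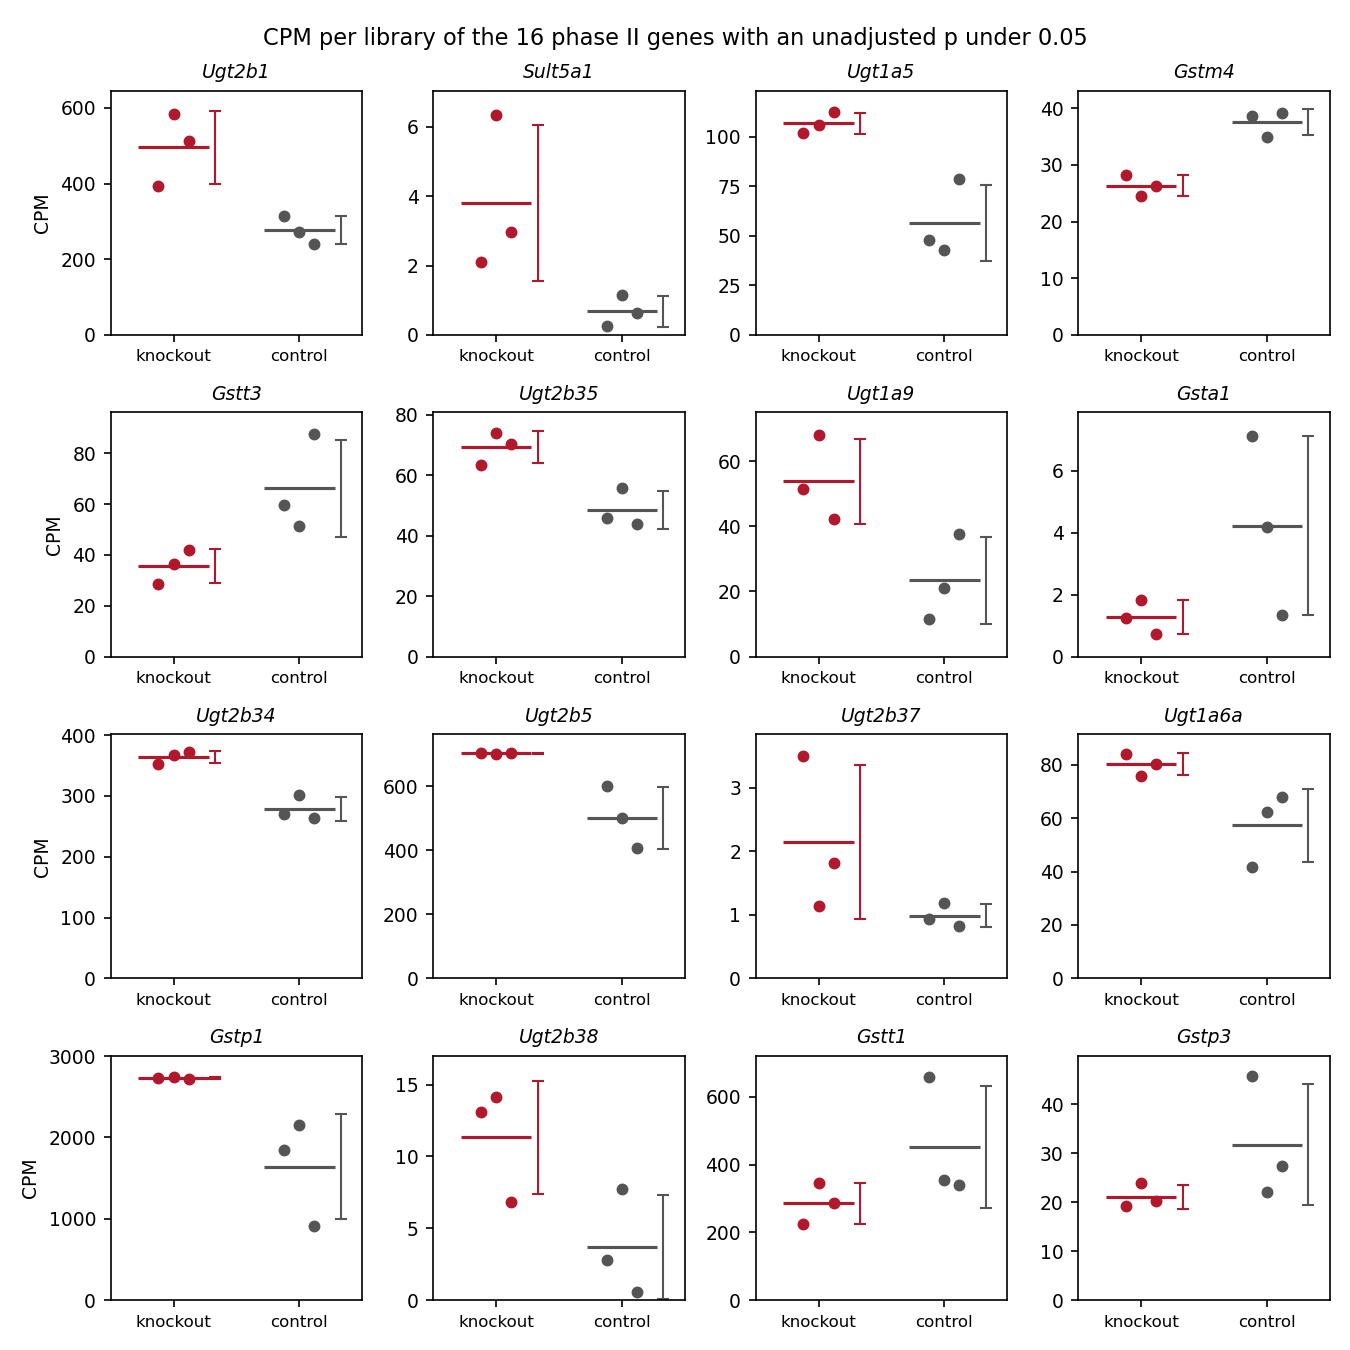
CPM in each library for the 16 phase II genes with an unadjusted p under 0.05, with knockout livers left of control livers; points are libraries, and the line and bar are the mean and SD (n = 3). Ugt2b1, Ugt1a5 and Sult5a1 show no overlap, whereas Gsta1 does, and the control points are more widely spread than the knockout points for Gstp1.

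The Ugt1a locus is a single gene with alternative starts: each enzyme has its own first exon and 4 exons at the 3′ end in common, over 164.6 kb of chromosome 1 (chr1:88055411-88220002). The shared part is 1311 bases of the 2203 of the Ugt1a5 transcript, and 39.5% to 71.5% of 100-base windows of the Ugt1a transcripts occur in another gene. The counts per isoform therefore rest on how the authors' counting divided shared reads. Ugt1a5, whose own exon lies 48.14 kb before the shared exons, had 102, 106 and 112 CPM in knockout livers and 47.7, 42.8 and 78.4 CPM in control livers. Control replicate 3 was the highest control and still below all knockout libraries. For Ugt1a5 the log2 fold change, 0.92 ± 0.22 (SE), had an adjusted p of 0.0718 by edgeR and between 0.00708 (without control replicate 3) and 0.230 (without knockout replicate 2) with single libraries left out. Ugt1a9, which in humans conjugates phenolic drugs such as propofol, had 51.5, 67.8 and 42.1 CPM in knockout livers and 11.5, 21.0 and 37.7 CPM in control livers. The gap between the groups was small, with 42.1 CPM in the lowest knockout and 37.7 CPM in the highest control library. The log2 fold change, 1.20 ± 0.36 (SE), had an adjusted p of 0.128 by edgeR and between 0.0185 (without control replicate 3) and 0.363 (without knockout replicate 2) with single libraries left out.

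Ugt1a6a, an enzyme for small planar phenols such as paracetamol, had 84.1, 76.0 and 80.3 CPM in knockout livers and 41.9, 62.5 and 67.7 CPM in control livers. The groups did not overlap; the log2 fold change, 0.48 ± 0.18 (SE), had an adjusted p of 0.201 by edgeR. Its near copy Ugt1a6b had 158, 188 and 191 CPM in knockout livers and 246, 176 and 145 CPM in control livers, with control replicate 1 the highest, and a log2 fold change of -0.08 ± 0.20 (SE). Ugt1a1, the enzyme of bilirubin conjugation, was the most abundant Ugt1a isoform by TPM. It had 328, 386 and 384 CPM in knockout livers and 218, 365 and 446 CPM in control livers. The knockout values lay within the range of the controls, and the log2 fold change was 0.09 ± 0.24 (SE). Ugt1a10 had 19, 21 and 23 counts in knockout livers and 8, 9 and 25 counts in control livers.

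Differences between the isoforms were not tested. Ugt1a5 and Ugt1a9 were summed because they had the highest fold changes of the locus. They held 21.1%, 21.0% and 19.1% of Ugt1a CPM in knockout livers and 10.5%, 9.55% and 15.0% in control livers, without overlap. Both were chosen from these same values, and each already had separate groups in CPM. The separate shares therefore follow largely from the choice and are no test of a shift between isoforms. Ugt1a1 held 45.3%, 46.8% and 47.3% in knockout livers and 38.5%, 54.6% and 57.4% in control livers. Summed Ugt1a CPM was 725, 825 and 811 in knockout livers and 567, 668 and 776 in control livers, so that the sums overlapped. Between the own exons of Ugt1a9 (143.4 kb before the shared exons) and Ugt1a5 (48.14 kb) lie those of Ugt1a8 (126.3 kb), which was not analysed here, Ugt1a7c (119.1 kb), Ugt1a6b (107.2 kb) and Ugt1a6a (75.71 kb).

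The Ugt3a enzymes differ from other Ugt enzymes in their sugar donors; in humans UGT3A2 uses UDP-glucose and UDP-xylose and UGT3A1 uses UDP-N-acetylglucosamine. Ugt3a2 had 160, 188 and 178 CPM in knockout livers and 129, 138 and 166 CPM in control livers. The groups overlapped through control replicate 3, and the log2 fold change was 0.28 ± 0.15 (SE), adjusted p 0.332 by edgeR. Ugt3a1 had 42.6 ± 5.34 CPM in knockout livers and 45.2 ± 7.35 CPM in control livers (SD, n = 3 each).

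Among the sulfotransferases, 7 of 14 genes had enough counts to be tested, and 1, Sult5a1, reached an unadjusted p under 0.05. Sult5a1 had 39, 111 and 52 counts in knockout livers and 4, 22 and 12 counts in control livers. All 3 knockout libraries were above all control libraries, at a low level of 3.80 ± 2.25 CPM in knockout livers and 0.676 ± 0.437 CPM in control livers (SD, n = 3 each). For Sult5a1 the log2 fold change, 2.43 ± 0.53 (SE), had an adjusted p of 0.0592 by edgeR. This log2 value was 1.85 without knockout replicate 2 and 3.01 without control replicate 2. No other transcript shares 100-base windows with it. This was the largest positive fold change among the 43 tested genes, and it rests on 4 to 111 counts per library.

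The abundant Sult genes had overlapping groups. Sult1a1, which sulfates phenols such as paracetamol, had 298, 394 and 451 CPM in knockout livers and 545, 355 and 483 CPM in control livers, and a log2 fold change of -0.27 ± 0.21 (SE). Sult2a8, a mouse enzyme of bile acid sulfation, had 402, 492 and 525 CPM in knockout livers and 435, 358 and 413 CPM in control livers, and a log2 fold change of 0.23 ± 0.16 (SE). These had adjusted p of 0.495 and 0.441 in edgeR's test. Sult1d1, which sulfates catecholamines in mice, had a log2 fold change of -0.10 ± 0.27 (SE), Sult1b1, which sulfates thyroid hormones, of 0.06 ± 0.31, Sult1c2 of -0.31 ± 0.25 and Sult2a7 of -0.35 ± 0.40. Sult1b1 and Sult1d1 sit at one end of the 701.8 kb cluster on chromosome 5 that also holds the Ugt2 genes.

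Gstp1, the pi-class enzyme that conjugates reactive aldehydes and the toxic metabolite of paracetamol, was the most abundant of the 55 genes in TPM, with 6947 ± 342 TPM in knockout livers and 4036 ± 1585 TPM in control livers (SD, n = 3 each). It had 2724, 2742 and 2715 CPM in knockout livers and 1851, 2157 and 912 CPM in control livers. The knockout libraries were close together, while control replicate 3 was far below the other controls. All controls were below the knockouts, and the log2 fold change came to 0.73 ± 0.27 (SE), adjusted p 0.202 by edgeR. Gstp1 is known in mouse liver as a gene with higher expression in males. It shares 52.8% of its 100-base windows with Gstp2 and a pseudogene, so the split of counts between them is uncertain. Gstp2 itself had 46, 90 and 62 counts in knockout livers and 62, 79 and 36 counts in control livers.

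Gstp3, the third gene of this 24.2 kb cluster on chromosome 19, had 19.2, 23.9 and 20.2 CPM in knockout livers and 45.7, 22.1 and 27.4 CPM in control livers. Control replicate 1 was far above the rest and control replicate 2 lay within the knockout range. Its log2 fold change of -0.58 ± 0.24 (SE) had the opposite sign to that of Gstp1, adjusted p 0.240 by edgeR.

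The mu-class genes, which conjugate epoxides and quinones, form a cluster of 7 on chromosome 3, and 6 of the 7 had negative fold changes. Gstm4 had 28.2, 24.5 and 26.3 CPM in knockout livers and 38.7, 34.9 and 39.1 CPM in control livers. The highest knockout library was below the lowest control library, and the log2 fold change, -0.51 ± 0.12 (SE), had an adjusted p of 0.0757 by edgeR. Gstm1, next to Gstp1 in TPM, had 2283, 2113 and 1985 CPM in knockout livers and 3533, 2646 and 2258 CPM in control livers. Knockout replicate 1 reached into the control range, with a log2 fold change of -0.40 ± 0.19 (SE) and an adjusted p of 0.290 by edgeR. The positive exception was Gstm2, at 0.35 ± 0.21 (SE), and Gstm3, Gstm5, Gstm6 and Gstm7 were between -0.29 and -0.15.

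Summed over the cluster, Gstm transcripts had 2563, 2404 and 2284 CPM in knockout livers and 3882, 2906 and 2591 CPM in control livers. The knockout sums were all lower, by a small margin to control replicate 3. Gstm1 and Gstp1 thus stood in different ratios in the 2 groups: Gstm1 made up 17.8%, 15.6% and 14.6% of the TPM of all phase II genes in knockout livers and 26.0%, 22.1% and 24.3% in control livers. Gstp1 made up 45.2%, 43.2% and 42.6% in knockout livers and 28.7%, 38.2% and 20.8% in control livers. Neither set of shares overlapped, but both are parts of one sum, so that a higher Gstp1 share by itself lowers that of Gstm1. They are not 2 separate results, and the ratio was not tested. In CPM the Gstm1 groups overlapped, and the adjusted p by edgeR was 0.290 for Gstm1 and 0.202 for Gstp1.

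**Figure D3:**
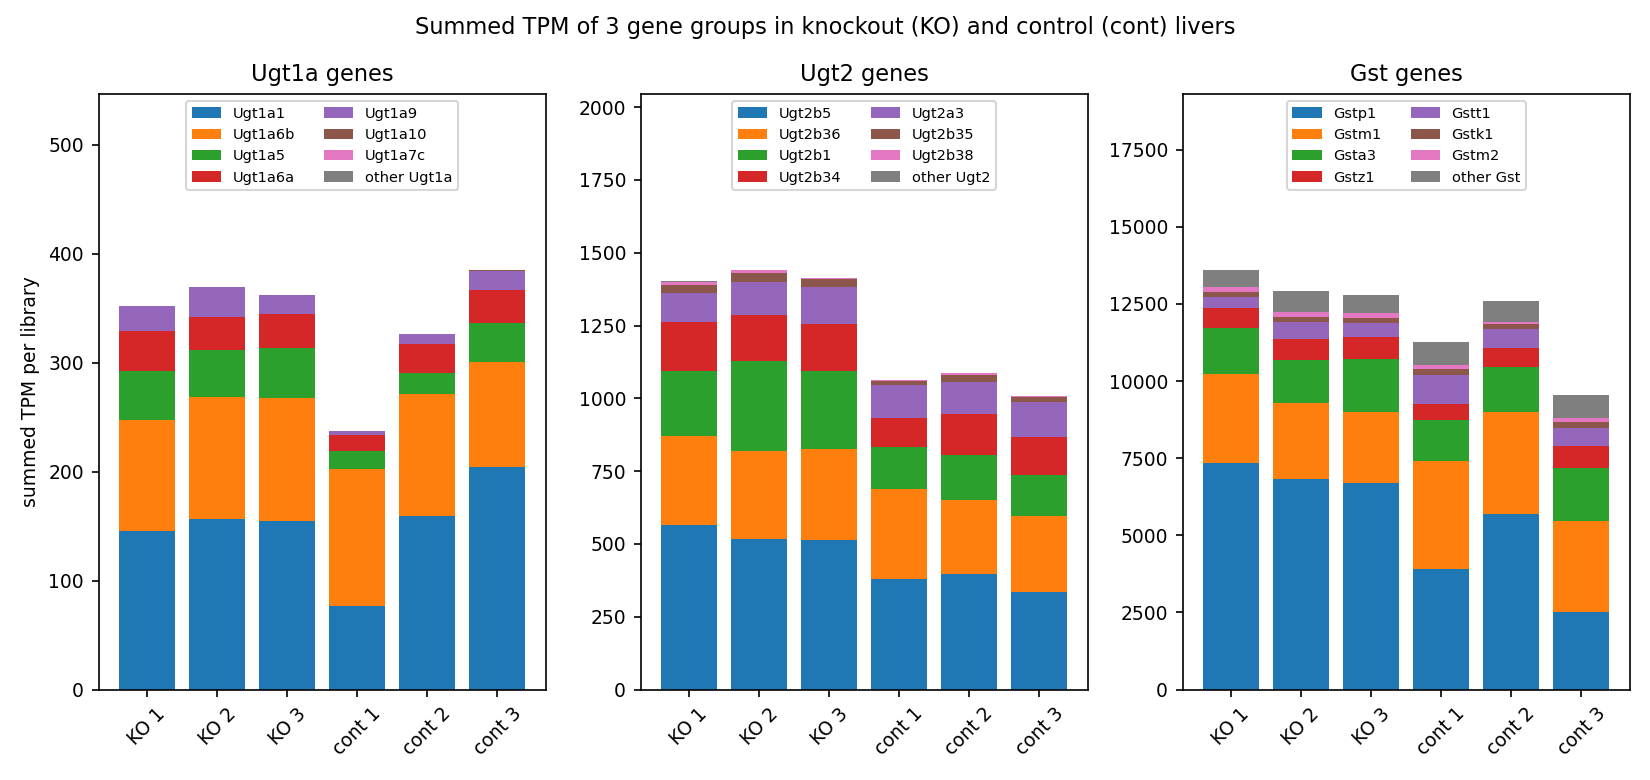
Summed TPM per library of the Ugt1a, Ugt2 and Gst genes, one stacked bar per library and one colour per gene, knockout livers left of control livers. The Ugt2 bars reach 1403, 1441 and 1415 TPM in knockout livers and 1062, 1087 and 1007 TPM in control livers without overlap, and the Ugt1a bars overlap. The lowest knockout Gst bar is just above the highest control one in TPM. In CPM the Gst sums overlapped, with 7704, 7939 and 8042 in knockout livers and 8980, 7675 and 6299 in control livers. Gstp1 is the largest piece of each Gst bar except that of control replicate 3, where it is Gstm1.

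The theta-class enzymes act on small halogenated compounds and sulfate esters. Gstt3 had 28.7, 36.3 and 41.9 CPM in knockout livers and 59.5, 51.5 and 87.7 CPM in control livers. The groups did not overlap, with control replicate 3 the highest of the 6. For Gstt3 the log2 fold change, -0.89 ± 0.22 (SE), had an adjusted p of 0.0774 by edgeR. Of its 100-base windows, 23.9% also occur in Gm20441, an overlapping gene model. Gstt1, known for the conjugation of dichloromethane, had 225, 346 and 288 CPM in knockout livers and 659, 355 and 340.4 CPM in control livers. Control replicate 1 was far above every other library, knockout replicate 2 reached the range of the other controls, and the adjusted p was 0.234 in edgeR's test for a log2 fold change of -0.66 ± 0.27 (SE). Gstt2, at the other end of this 63.3 kb cluster, had a log2 fold change of 0.38 ± 0.30 (SE). Its share of Gstt TPM was 8.55%, 10.5% and 7.70% in knockout livers and 4.31%, 3.87% and 5.38% in control livers. In CPM the Gstt2 groups overlapped. Gstt1 made up 84.2% to 91.9% of the same sum, so a lower Gstt1 by itself raises the share of Gstt2. The shares were not tested.

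The alpha class held the most negative fold change of all 43 tested genes and one of the smallest. Gsta1, an inducible gene in mouse liver, had 23, 32 and 13 counts in knockout livers and 106, 81 and 26 counts in control livers. Knockout replicate 2 was above control replicate 3, so the groups overlapped. The log2 fold change, -1.71 ± 0.55 (SE), had an adjusted p of 0.150 by edgeR and between 0.0197 (without control replicate 3) and 0.365 (without knockout replicate 3) with single libraries left out. Gsta1 shares 81.8% of its 100-base windows with Gsta2 and the gene models Gm3776 and Gm10639. Summed over these 4 genes, the counts were 166, 408 and 296 in knockout livers and 724, 519 and 358 in control livers, again with overlap. Gsta2 alone had a log2 fold change of -0.87 ± 0.41 (SE).

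Gsta3, which in mice detoxifies the epoxide of aflatoxin B1 and came after Gstp1 and Gstm1 in TPM, had 1273, 1304 and 1593 CPM in knockout livers and 1436, 1253 and 1397 CPM in control livers. The groups overlapped throughout, and the log2 fold change, 0.03 ± 0.15 (SE), had a sign that changed with the scaling and with the library left out. Gsta4, an enzyme for the lipid peroxidation product 4-hydroxynonenal, had a log2 fold change of -0.25 ± 0.26 (SE).

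The remaining Gst classes each have a separate task. Gstz1 is the maleylacetoacetate isomerase of tyrosine breakdown and had 732 ± 89.2 CPM in knockout livers and 679.9 ± 20.2 CPM in control livers (SD, n = 3 each). Gsto1, which reduces dehydroascorbate, had 93.9 ± 11.1 CPM in knockout livers and 83.0 ± 14.8 CPM in control livers (SD, n = 3 each), and Gstk1, found in mitochondria and peroxisomes, 93.8 ± 9.58 CPM in knockout livers and 102 ± 24.4 CPM in control livers (SD, n = 3 each). Their log2 fold changes were 0.11 ± 0.14, 0.18 ± 0.17 and -0.12 ± 0.18 (SE), and all 3 had overlapping groups.

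**Figure D4:**
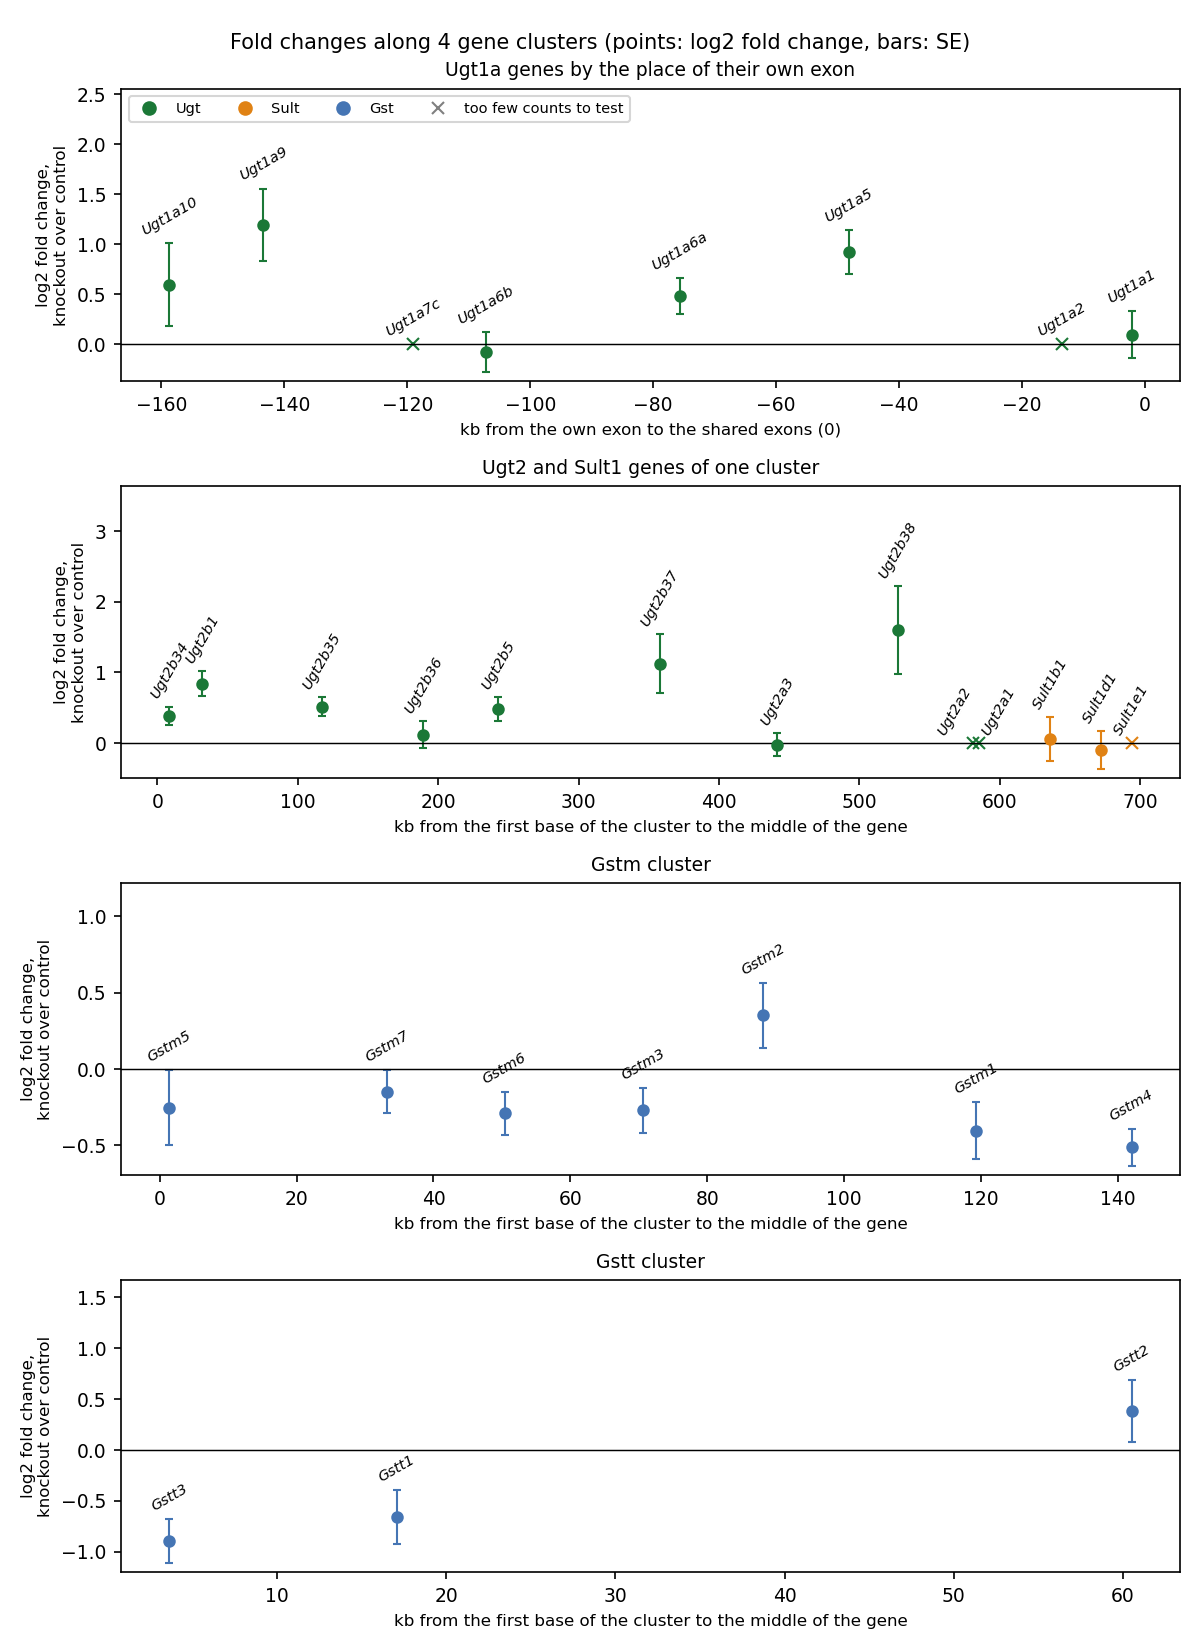
Log2 fold change of knockout over control, with the standard error as a bar, against distance in kb along the Ugt1a locus and the Ugt2 with Sult1, Gstm and Gstt clusters; crosses are genes with too few counts to test. Positive and negative values are neighbours in the Gstt cluster, and the Ugt2b values lie above 0 along the whole chromosome 5 cluster.

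In the order of mean TPM over all 6 libraries, Gstp1, Gstm1 and Gsta3 came first, followed by Gstz1, Gstt1, Sult1a1, Ugt2b5, Ugt2b36, Sult2a8 and Ugt2b1. Gstp1 averaged 6947 ± 342 TPM in knockout livers and 4036 ± 1585 TPM in control livers (SD, n = 3 each) and Gstm1 2549 ± 307 TPM in knockout livers and 3256 ± 288 TPM in control livers (SD, n = 3 each). Gstp1 was above Gstm1 in every library except control replicate 3, and Gstm1 was above Gsta3 in all 6. Gstz1, Gstt1 and Sult1a1 did not differ beyond their spread in control livers, at 627 ± 96.8, 706 ± 194 and 547 ± 96.3 TPM (SD, n = 3).

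The 12 genes with too few counts to test were Gsto2, Ugt1a2, Ugt1a7c, Ugt2a1, Ugt2a2 and 7 Sult genes. Sult1e1, the estrogen sulfotransferase, had 1, 1 and 1 counts in knockout livers and 4, 5 and 14 counts in control livers, so its groups did not overlap, but it did not pass the low-count filter. Ugt1a7c had 6, 4 and 0 counts in knockout livers and 3, 10 and 9 counts in control livers, with overlap. The other 10 had at most 6 counts in either group of 3 libraries, at a floor of 3 counts or 0.161 to 0.193 CPM per library. They include Sult2a1, Sult2a2 and Sult3a1, which are known to be expressed mainly in livers of female mice, Sult2b1, which sulfates cholesterol, and the brain enzyme gene Sult4a1.

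The suppliers of the donor molecules were read next. For this and the other gene lists below, the background is the share over all genes. At an unadjusted p under 0.05 in edgeR's test, 9.27% were higher and 9.26% lower. At an adjusted p under 0.05, edgeR called 0.772% higher and 0.715% lower, and DESeq2 called 3.17% higher and 2.24% lower. Of 6 genes of UDP-glucuronic acid supply, 1 passed in edgeR's test: Slc35b1, a nucleotide transporter of the endoplasmic reticulum, fell to 21.5 ± 2.20 CPM in knockout livers, against 34.3 ± 2.87 CPM in control livers (SD, n = 3 each), with an adjusted p of 0.0454. DESeq2 and limma-voom also called it, and limma on log2(FPKM + 1) did not. Ugdh, which makes UDP-glucuronic acid, had 72.9 ± 9.66 CPM in knockout livers and 74.4 ± 5.29 CPM in control livers (SD, n = 3 each). Of 7 genes of sulfate and PAPS supply 0 passed in edgeR's or DESeq2's test, with 0 higher and 2 lower at an unadjusted p under 0.05. Fold changes were positive for 4 of the 7 and negative for 3. Papss1, a PAPS synthase, had the smallest p. It had 6.62 ± 0.588 CPM in knockout livers and 9.97 ± 1.99 CPM in control livers (SD, n = 3 each). The more abundant synthase gene Papss2 had 132 ± 22.4 CPM in knockout livers and 81.9 ± 43.05 CPM in control livers, with overlap. Its log2 fold change was 0.69 ± 0.31 (SE), adjusted p 0.278 by edgeR. Of 9 genes of glutathione synthesis and recycling 0 passed in edgeR's test, with 3 higher and 1 lower at an unadjusted p under 0.05. DESeq2 called Gclc and Oplah higher. Gclc, the catalytic subunit of the rate-limiting enzyme, had 169.8 ± 18.1 CPM in knockout livers and 119.8 ± 10.1 CPM in control livers (SD, n = 3 each), adjusted p 0.106 by edgeR.

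Genes that act after or beside these enzymes were mostly positive in fold change. Of 9 efflux transporter genes 8 were positive, against 5821 of all 12173 genes tested, and 1 passed in edgeR's test. Abcg2, which exports sulfate conjugates, rose to 58.4 ± 9.02 CPM in knockout livers, against 29.5 ± 2.76 CPM in control livers (SD, n = 3 each), with a log2 fold change of 0.99 ± 0.15 (SE) and an adjusted p of 0.0167. Abcc2, the canalicular exporter of glucuronides and glutathione conjugates, had 235 ± 16.9 CPM in knockout livers and 165 ± 51.0 CPM in control livers (SD, n = 3 each) without overlap, and an adjusted p of 0.231 by edgeR. Of 6 genes of deconjugation 0 passed in edgeR's test, with 4 higher and 0 lower at an unadjusted p under 0.05, against 9.27% and 9.26% of all genes. DESeq2 called Arsg, an arylsulfatase, higher; it had 13.2 ± 1.98 CPM in knockout livers and 8.38 ± 1.20 CPM in control livers (SD, n = 3 each). Of 25 genes of other conjugation reactions 0 passed in edgeR's test, with 6 higher and 1 lower at an unadjusted p under 0.05. DESeq2 called 3 higher (Glyat, Inmt and Nat8f2) and 1 lower (Mgst3). The smallest p of this list in edgeR's test was that of Acsm2, with 19, 21 and 20 counts in knockout livers and 1, 9 and 0 counts in control livers.

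Among 21 regulators of phase II genes, 1 passed in edgeR's test: Ppargc1a, a coactivator of nuclear receptors, rose to 10.8 ± 0.937 CPM in knockout livers, against 4.73 ± 0.662 CPM in control livers (SD, n = 3 each), with an adjusted p of 0.0131. DESeq2 called Cebpb higher as well. Nr1i2, which encodes PXR, had 115 ± 0.356 CPM in knockout livers and 90.2 ± 2.07 CPM in control livers (SD, n = 3 each), and Nr1i3, which encodes CAR, 138 ± 10.1 CPM in knockout livers and 121 ± 5.22 CPM in control livers (SD, n = 3 each). Both had higher values in every knockout library than in any control library, as did 13.3% of all genes tested. The adjusted p was 0.158 for Nr1i2 and 0.468 for Nr1i3 in edgeR's test. For Nr1i3 the margin was 127.6 against 127.1 CPM. Nfe2l2, which encodes NRF2, and Ahr had overlapping groups, with log2 fold changes of -0.27 ± 0.14 and -0.08 ± 0.14 (SE). Of the 21 regulators 14 were positive and 7 negative, with 5 higher and 1 lower at an unadjusted p under 0.05.

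Of 11 further target genes of CAR and PXR 0 passed in edgeR's test, with 5 higher and 1 lower at an unadjusted p under 0.05. Cyp2b10, the cytochrome P450 gene most used to read CAR, had the smallest p, with 44, 27 and 36 counts in knockout livers and 41, 111 and 177 counts in control livers. DESeq2 called it lower, and Cyp2a5, Cyp3a13 and Por higher. Of 5 AhR targets 0 passed in edgeR's or DESeq2's test, with 0 higher and 2 lower at an unadjusted p under 0.05. Cyp1a1, the classical AhR target, had 5, 9 and 12 counts in knockout livers and 15, 32 and 15 counts in control livers. Of 13 NRF2 targets 0 passed in edgeR's test, with 2 in each direction at an unadjusted p under 0.05 and a median log2 fold change of -0.03; DESeq2 called 1, Gclc. Limma-voom called 0 genes of these CAR, PXR, AhR and NRF2 lists, and 0 of the PAPS, glutathione, deconjugation and other conjugation lists.

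Sex-biased liver genes are given because several phase II genes are known to be sex-biased in mice. Of 15 male-biased genes tested, 14 had positive fold changes, 10 of them at an unadjusted p under 0.05. Over all 12173 genes tested, 5821 were positive, and 9.27% were higher and 9.26% lower at that p. In edgeR's test 1 passed: Serpina1e, a secreted protease inhibitor, rose to 11560 ± 2544 CPM in knockout livers, against 3640 ± 1322 CPM in control livers (SD, n = 3 each). DESeq2 called 6 higher (C6, Cspg5, Cyp7b1, Serpina1e, Slc22a30 and Susd4). The median log2 fold change was 0.57, against -0.02 over all genes. The 16 male-biased genes measured, tested or not, summed to 18050 to 23770 CPM in knockout livers and 5866 to 14050 CPM in control livers, control replicate 3 being the lowest. Of 11 female-biased genes 7 were negative and 0 passed in edgeR's test, with 1 higher and 4 lower at an unadjusted p under 0.05; DESeq2 called 1 lower, Prlr. The 17 female-biased genes measured, tested or not, summed to 2437 to 2991 CPM in knockout livers and 665 to 2877 CPM in control livers. All 6 libraries held transcripts of the 4 Y-linked genes Ddx3y, Eif2s3y, Kdm5d and Uty, so each library held RNA of male mice. Summed counts of these genes were 1327, 1257 and 1419 in knockout livers and 1298, 1255 and 1356 in control livers. The part of this pattern in the fold changes of the phase II genes was not tested.

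Markers of liver zones and of other cells were read in the same way. The background over all 12173 genes tested was 5821 positive and 6352 negative, with 9.27% higher and 9.26% lower at an unadjusted p under 0.05. Of 18 pericentral genes 0 passed in edgeR's test (2 higher and 3 lower at an unadjusted p under 0.05, and 1 higher, Cyp2a5, by DESeq2), with a median log2 fold change of -0.05. Of 17 periportal genes 16 had positive fold changes, 6 of them at an unadjusted p under 0.05, with a median of 0.31. In edgeR's test 2 rose, the adhesion gene Cdh1 and the gluconeogenic gene Pck1. DESeq2 called 4 higher (Cdh1, Fbp1, Gls2 and Pck1), limma-voom the 2 that edgeR called, and limma on log2(FPKM + 1) called 0. The periportal genes summed to 18630 to 20530 CPM in knockout livers and 14670 to 15980 CPM in control livers, without overlap. The 11 hepatocyte markers tested had 0 calls by edgeR or DESeq2, 0 at an unadjusted p under 0.05, and a summed level of 178000 to 204500 CPM in knockout livers and 166700 to 207800 CPM in control livers. All 10 Kupffer cell markers had negative fold changes, 4 of them at an unadjusted p under 0.05. None passed in edgeR's test, and 1, C1qb, was called lower by DESeq2. Their summed level was 470 to 536 CPM in knockout livers and 523 to 762 CPM in control livers. The 10 T and NK cell markers measured summed to at most 7.60 CPM in knockout livers and at least 9.70 CPM in control livers. Of the 7 tested, 0 passed in edgeR's test, 5 were lower at an unadjusted p under 0.05 and 2 were lower by DESeq2. Of 10 endothelial markers 3 were positive and 7 negative, with a median log2 fold change of -0.06. Their sums overlapped, at 330 to 398 CPM in knockout livers and 374 to 414 CPM in control livers. Only 1 of them, Lyve1, had an unadjusted p under 0.05, and edgeR and DESeq2 called it lower. All 4 B cell markers tested were negative, 2 of them at an unadjusted p under 0.05. Of these, edgeR and DESeq2 called the plasma cell gene Jchain lower. Limma-voom and limma on log2(FPKM + 1) called Lyve1 and not Jchain. No marker that was measured was at 0 in every library, and the part of these cells in the phase II results was not tested.

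The number of phase II genes past the threshold depended on the test. DESeq2's Wald test gave 9 at an adjusted p of 0.05, where 5.41% of all genes passed (3.17% higher and 2.24% lower). The 6 higher were Sult5a1, Ugt2b1, Ugt1a5, Ugt1a9, Ugt2b35 and Ugt2b34, and the 3 lower were Gstt3, Gstm4 and Gsta1. The authors' deposited table lists 8 with a q-value under 0.05, against 3.47% of its genes (2.03% higher and 1.44% lower): Sult5a1 (q of 0.000413), Ugt2b1 (0.000627), Ugt1a5 (0.00301), Ugt1a9 (0.0164) and Ugt2b35 (0.0366) as higher, and Gstt3 (0.00599), Gstm4 (0.0304) and Gsta1 (0.0380) as lower in knockout livers. Limma-voom gave 0 of the phase II genes (1.36% of all genes), as did limma on log2(FPKM + 1) (1.05%).

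The calls also depended on single libraries. With knockout replicate 1, 2 or 3 left out, edgeR called 0 phase II genes, and 0.478%, 0.348% and 0.486% of all genes. Without control replicate 1 it called Ugt2b1 and Ugt2b5 (2.93% of all genes), without control replicate 2 none (0.628%), and without control replicate 3 Ugt1a5, Ugt1a9 and Gsta1 (5.41%). Without a low-count filter it called Sult5a1, Ugt2b1, Ugt1a5 and Gstt3 (2.05%).

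**Figure D5:**
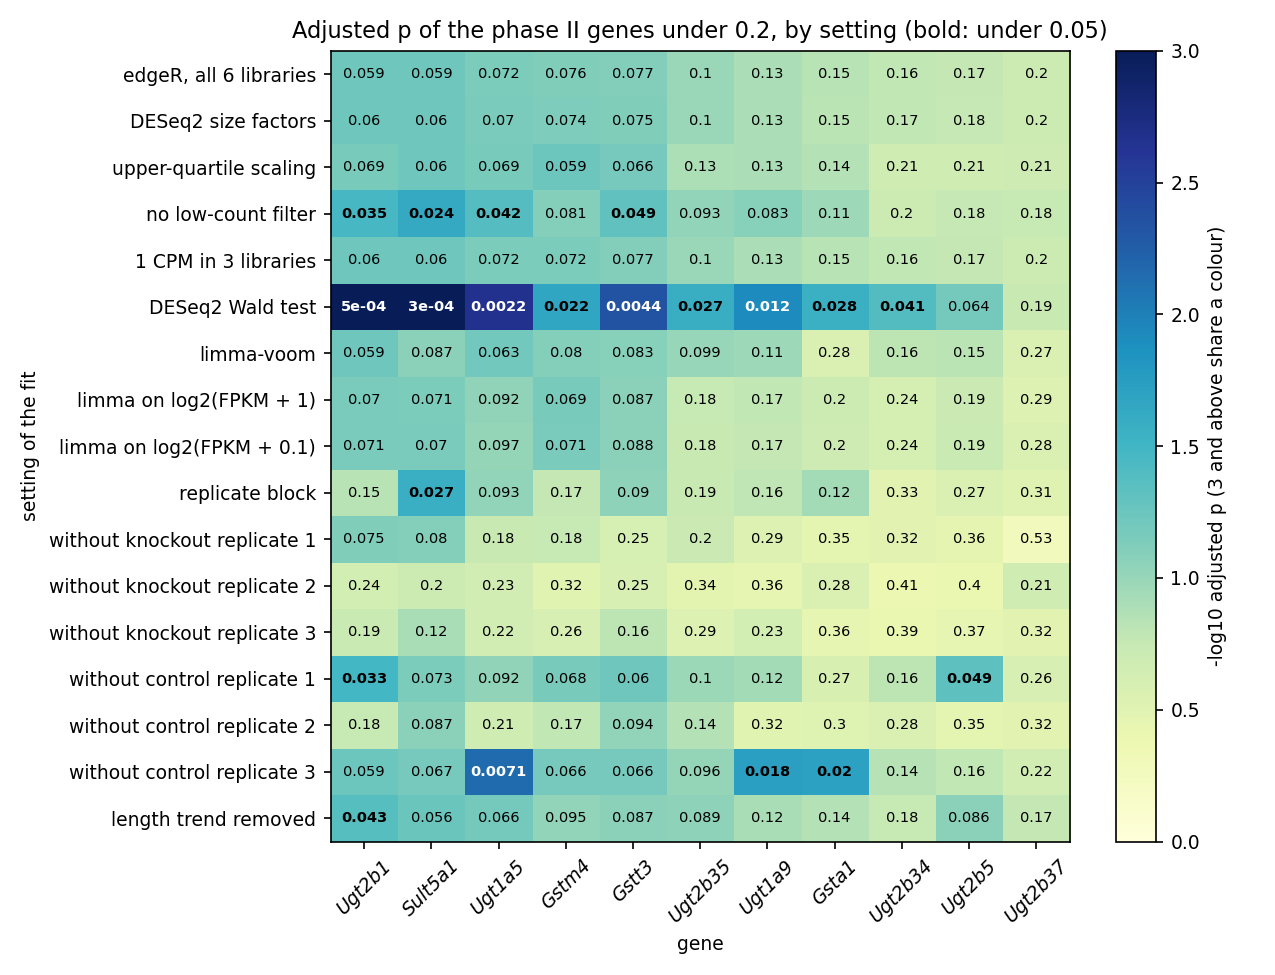
Adjusted p of the 11 phase II genes under 0.2 in edgeR's test on all 6 libraries (columns) under that test and each alternative setting (rows); colour is the negative log10 of the adjusted p and bold marks values under 0.05. The DESeq2 row is the only one with more than 4 genes in bold, and the rows that leave out a knockout library have none.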

How the data were processed

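Bulk RNA-seq of 3 knockout and 3 control livers was analysed. Per the submitters' processing notes, HISAT2, Bowtie2 and RSEM 1.3.1 were used with GRCm38. The sources used here do not give their roles, the trimming or the strand setting. The authors deposited 1 table with an estimated count, an FPKM and a TPM per gene and library, per the file headers, with their group means and their DESeq2 log2 fold change, p-value and q-value. The deposited log2 fold change is knockout over control, by comparison with the deposited group means.

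Estimated counts were rounded to whole numbers (4.55% to 4.98% of values were over 0.01 from one). All genes with enough counts (filterByExpr, 12173 genes) were scaled with TMM factors. The model held genotype alone, fitted in edgeR 4.0.16 (R 4.3.3) with its quasi-likelihood F test, and p-values were adjusted over all tested genes after Benjamini and Hochberg. Fold changes and standard errors come from this fit. In a simulation on 12071 genes with the real means and library sizes, the test recovered 72.7% of changes of log2 1 and 100% of changes of log2 2, and 6.04% of its calls were false. No 2 libraries agreed within sampling noise. Where a library has no count the limit is 3 counts, equal to 0.161 to 0.193 CPM. Such floors cover counting error only, because PCR reads that carry no molecular identifier can be copies of each other.

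Alternatives changed the scaling (size factors of DESeq2, upper quartiles), the filter (none, or at least 1 CPM in 3 libraries) or the test (Wald test of DESeq2 1.42.0, limma-voom with limma 3.58.1, limma on log2(FPKM + 1) and log2(FPKM + 0.1) for genes with a mean FPKM of at least 0.5). Others added the replicate number as a block, left out each library or used an adjusted p of 0.1. A fit without the trend of abundance on transcript length in each library was added after seeing the data. Shared sequence was counted as the share of 100-base windows of a GENCODE transcript on GRCm38 that occur in a transcript of another gene. Promoters are RefSeq's (GRCm38.p6).

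The members and the gene lists were chosen with earlier results of these data known. Named are the tested member with the smallest p in each subfamily, the 10 members with the highest TPM, all members with an unadjusted p under 0.05, the untested ones with their counts, and of other lists the genes that passed or the one with the smallest p; further genes were chosen after their values were seen. Some genes are not reported here.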

Additional observations from a re-analysis of the deposited data

How the results depend on the processing

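Of the 43 phase II genes tested, edgeR called 0 higher and 0 lower in knockout livers. These counts were the same with DESeq2 size factors, upper-quartile scaling, a filter of 1 CPM in 3 libraries, limma-voom and limma on both FPKM scales. Without a low-count filter 3 were called higher (Sult5a1, Ugt2b1 and Ugt1a5) and 1 lower (Gstt3), where 2.05% of all genes were called. DESeq2's Wald test called 6 higher and 3 lower. An adjusted p of 0.1 gave 3 higher and 2 lower. Removal of the length trend, chosen after seeing the data, gave 1 higher, Ugt2b1, with 274 of all genes called. With each library left out in turn, 0 to 2 were called higher (Ugt2b1 and Ugt2b5 without control replicate 1, Ugt1a5 and Ugt1a9 without control replicate 3) and 0 to 1 lower (Gsta1 without control replicate 3). Without control replicates 1 and 3 in turn, 361 and 667 of all genes were called, against 181 with all 6 libraries. The cause of these differences was not tested.

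Of the 24 genes named by rule, 23 kept the sign of their log2 fold change in all 16 alternatives. Gsta3 was at 0.03 in the fit reported, at -0.00895 with upper-quartile scaling, at -0.0260 with limma on log2(FPKM + 1) and also on log2(FPKM + 0.1), and between -0.0784 and 0.0904 with libraries left out. The median log2 fold change over the tested members, 0.06, had a different sign under some settings, between -0.08 and 0.17, whereas that of all genes stayed between -0.06 and 0.00.

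The labels do not say whether the replicate numbers pair the samples. Deviations from the group means of same-numbered knockout and control libraries correlated at r of -0.16, -0.08 and -0.08 across genes. With 3 libraries per group, such values cannot show whether a pairing exists. With the replicate number as a block, 1 phase II gene was called higher, Sult5a1 (adjusted p of 0.027 in edgeR's test), and 87 of all genes.

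Genes with a few counts per library, such as Sult5a1, Ugt2b37 and Gsta1, have wide errors at this depth. Isoforms of Ugt1a and the near copies in the Gsta, Gstp and Ugt2b groups depend on how shared reads were divided.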
